A study of Mus musculus with 20 samples.

Results

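Emb, Tnni1, Nrgn, Igfbp4, Plac8, Hivep3 and Lmo4 were picked because their transcripts were much scarcer in T-bet high than in T-bet int precursors of intraepithelial lymphocytes (IELs) of the mouse thymus. They are 7 of 25246 nuclear genes listed over all libraries. The values that picked them are those of the step from T-bet int to T-bet high, so that step is given as a description, and the question is when each gene comes on before it. Emb, Tnni1, Nrgn and Igfbp4 were at or near 0 in the T-bet high cells of the reporter mouse, whereas Plac8, Hivep3 and Lmo4 kept lower levels there, so "lost" holds for 4 of the 7 in that mouse. In a second, younger mouse all 7 still had transcripts in T-bet high cells.

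Single thymic T cells lacking CD4 and CD8 were index-sorted into 96-well libraries and sequenced by CEL-Seq2, which counts the 3′ ends of mRNA with molecular identifiers. The study describes the sorted cells as positive for the alpha beta T cell receptor and negative for NK1.1. The 4 gates followed the gain of CD122 and then of T-bet: negative for both (CD122-T-bet-), CD122 alone (CD122+T-bet-), and CD122 with intermediate or high reporter (T-bet int, T-bet high). CD122 is the interleukin 2 and 15 receptor beta chain encoded by Il2rb, and T-bet is the T-box factor encoded by Tbx21. Every mouse carried the TBGR reporter, in which ZsGreen follows T-bet. The series compared these stages within a genotype, and mice with and without Cd4-Cre deletion of C-myc at the first 2 stages. The TBGR mouse was wild type for C-myc and 4 weeks old (8 libraries, 2 per population). The TBGR C-myc fl/fl mouse was 2 weeks old (8 libraries, 4 shared by both T-bet- populations and 4 shared by both T-bet+ populations). The TBGR C-myc D/DCd4 mouse was 2 weeks old (4 libraries, 2 for each T-bet- population). The study describes its Cd4-Cre deletion of the floxed C-myc alleles as restricted to T cells. Each genotype was 1 mouse, so there is no test and no p-value, and allele, age and mouse cannot be told apart between TBGR and the other mice. Where the populations of a step lay in separate libraries, stage and set of libraries cannot be told apart either. Of 1920 wells, 1413 held at least 2000 transcripts, with 22 to 94 cells and 94268 to 775264 transcripts per library and population. All libraries drew on 2 sets of cell barcodes, each shared by 10 libraries, and 0 wells repeated another well's counts. Emb, Nrgn, Igfbp4, Plac8, Hivep3 and Lmo4 had transcripts in 20 of 20 libraries, and Tnni1 in 17.

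The gates matched their defining genes. In TBGR cells Il2rb was at 7.14, 269, 398 and 515 CPM (transcripts of a gene scaled to a total of 1000000) from CD122-T-bet- to T-bet high, and Tbx21 at 0, 1.36, 48.0 and 165 CPM. The T-bet high gate differed between the mice, however. Klrk1, which encodes the receptor NKG2D, was detected in 109 of 147 TBGR cells (74.1%) but in 38 of 112 C-myc fl/fl cells (33.9%) of that gate, and Tbx21 was at 60.0 CPM in the latter. Klrb1c, which encodes NK1.1, was detected in 124 of the 147 TBGR T-bet high cells (84.4%). The sources differ on this marker. The deposited design names NK1.1+ cells, whereas the study describes its sort as NK1.1- throughout. It also reports a Klrb1c signature in its T-bet+ NK1.1- cells. The gates are used here as the study gives them.

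Natural IELs arise from thymocytes that meet strong self-ligand, pass a stage marked by PD-1 (Pdcd1) and Helios (Ikzf2), gain CD122 and with it responsiveness to interleukin 15, and then express T-bet. The 7 genes belong to no common pathway. Emb encodes embigin, a membrane glycoprotein of the immunoglobulin superfamily that escorts monocarboxylate transporters. Tnni1 encodes the slow skeletal troponin I of the muscle thin filament, Nrgn the calmodulin-binding protein neurogranin, and Igfbp4 a secreted binding protein for insulin-like growth factors. Plac8 encodes a small cysteine-rich protein, Hivep3 the large zinc finger protein Schnurri-3, and Lmo4 a LIM-only adaptor that joins transcription factor complexes.

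In GRCm38.p6 (RefSeq) Emb spans chr13:117220573-117274415 on the plus strand, Tnni1 chr1:135783033-135810989 (plus), Nrgn chr9:37544493-37552745 (minus), Igfbp4 chr11:99040005-99052655 (plus), Plac8 chr5:100551589-100572253 (minus), Hivep3 chr4:119733759-120138045 (plus) and Lmo4 chr3:144188530-144205255 (minus). The 250 bases before the start that RefSeq's promoter table lists first, for the 4 genes that went to or near 0 in TBGR T-bet high cells are shown because these genes share that end point; for Tnni1 and Igfbp4 that start lies inside the gene span just given. They were searched on both strands for GGTGTGA (T-box), CAGGTG and CAGCTG (E-box), CACGTG (the Myc E-box), TGTGGT (Runx), CTTTGAA and CTTTGAT (TCF/LEF) and AAAGGTCA (NR4A); capitals mark matches.
Emb (chr13:117220323-117220572, plus strand): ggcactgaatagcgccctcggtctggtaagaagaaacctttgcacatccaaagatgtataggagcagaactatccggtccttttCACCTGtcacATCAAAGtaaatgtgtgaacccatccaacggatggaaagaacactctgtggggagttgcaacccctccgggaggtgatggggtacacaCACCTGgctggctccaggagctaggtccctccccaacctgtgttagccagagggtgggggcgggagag
Tnni1 (chr1:135799171-135799420, plus strand): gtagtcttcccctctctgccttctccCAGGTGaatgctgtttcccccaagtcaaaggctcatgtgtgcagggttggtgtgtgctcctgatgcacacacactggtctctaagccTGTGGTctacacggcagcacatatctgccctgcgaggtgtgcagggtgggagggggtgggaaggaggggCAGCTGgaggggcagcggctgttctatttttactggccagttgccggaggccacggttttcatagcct
Nrgn (chr9:37552746-37552995, minus strand): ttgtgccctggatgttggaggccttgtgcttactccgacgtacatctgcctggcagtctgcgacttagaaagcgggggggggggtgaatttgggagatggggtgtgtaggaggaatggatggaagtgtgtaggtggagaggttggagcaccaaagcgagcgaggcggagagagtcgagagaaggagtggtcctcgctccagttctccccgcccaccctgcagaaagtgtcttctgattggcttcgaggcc
Igfbp4 (chr11:99040994-99041243, plus strand): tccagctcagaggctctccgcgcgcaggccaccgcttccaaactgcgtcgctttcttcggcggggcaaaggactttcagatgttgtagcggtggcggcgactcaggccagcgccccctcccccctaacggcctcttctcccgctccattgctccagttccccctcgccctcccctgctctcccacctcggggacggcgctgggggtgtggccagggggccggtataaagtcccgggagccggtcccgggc
The Emb window held CAGGTG on the other strand at 166 to 161 and at 68 to 63 bases before the start, and CTTTGAT at 156 to 150. The Tnni1 window held CAGGTG at 224 to 219, the Runx motif at 137 to 132 and CAGCTG at 68 to 63 bases before the start. None of the 8 motifs was found in the Nrgn and Igfbp4 windows. Of 27025 mouse promoters, 17.1% held CAGGTG in a window of the same length, 12.8% CAGCTG, 14.2% TGTGGT and 3.23% CTTTGAT. The T-box motif was in 3.31% of all promoters and, among the 7 genes, in that of Plac8, which also held TGTGGT at 2 places. CACGTG (6.05% of promoters), CTTTGAA (4.64%) and AAAGGTCA (1.31%) were in none of the 7. Hivep3 and Lmo4 held no motif. GC content was 54.8% for Emb, 58.4% for Tnni1 and for Nrgn, and 69.2% for Igfbp4, against a median of 52% over all promoters.

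**Figure D1:**
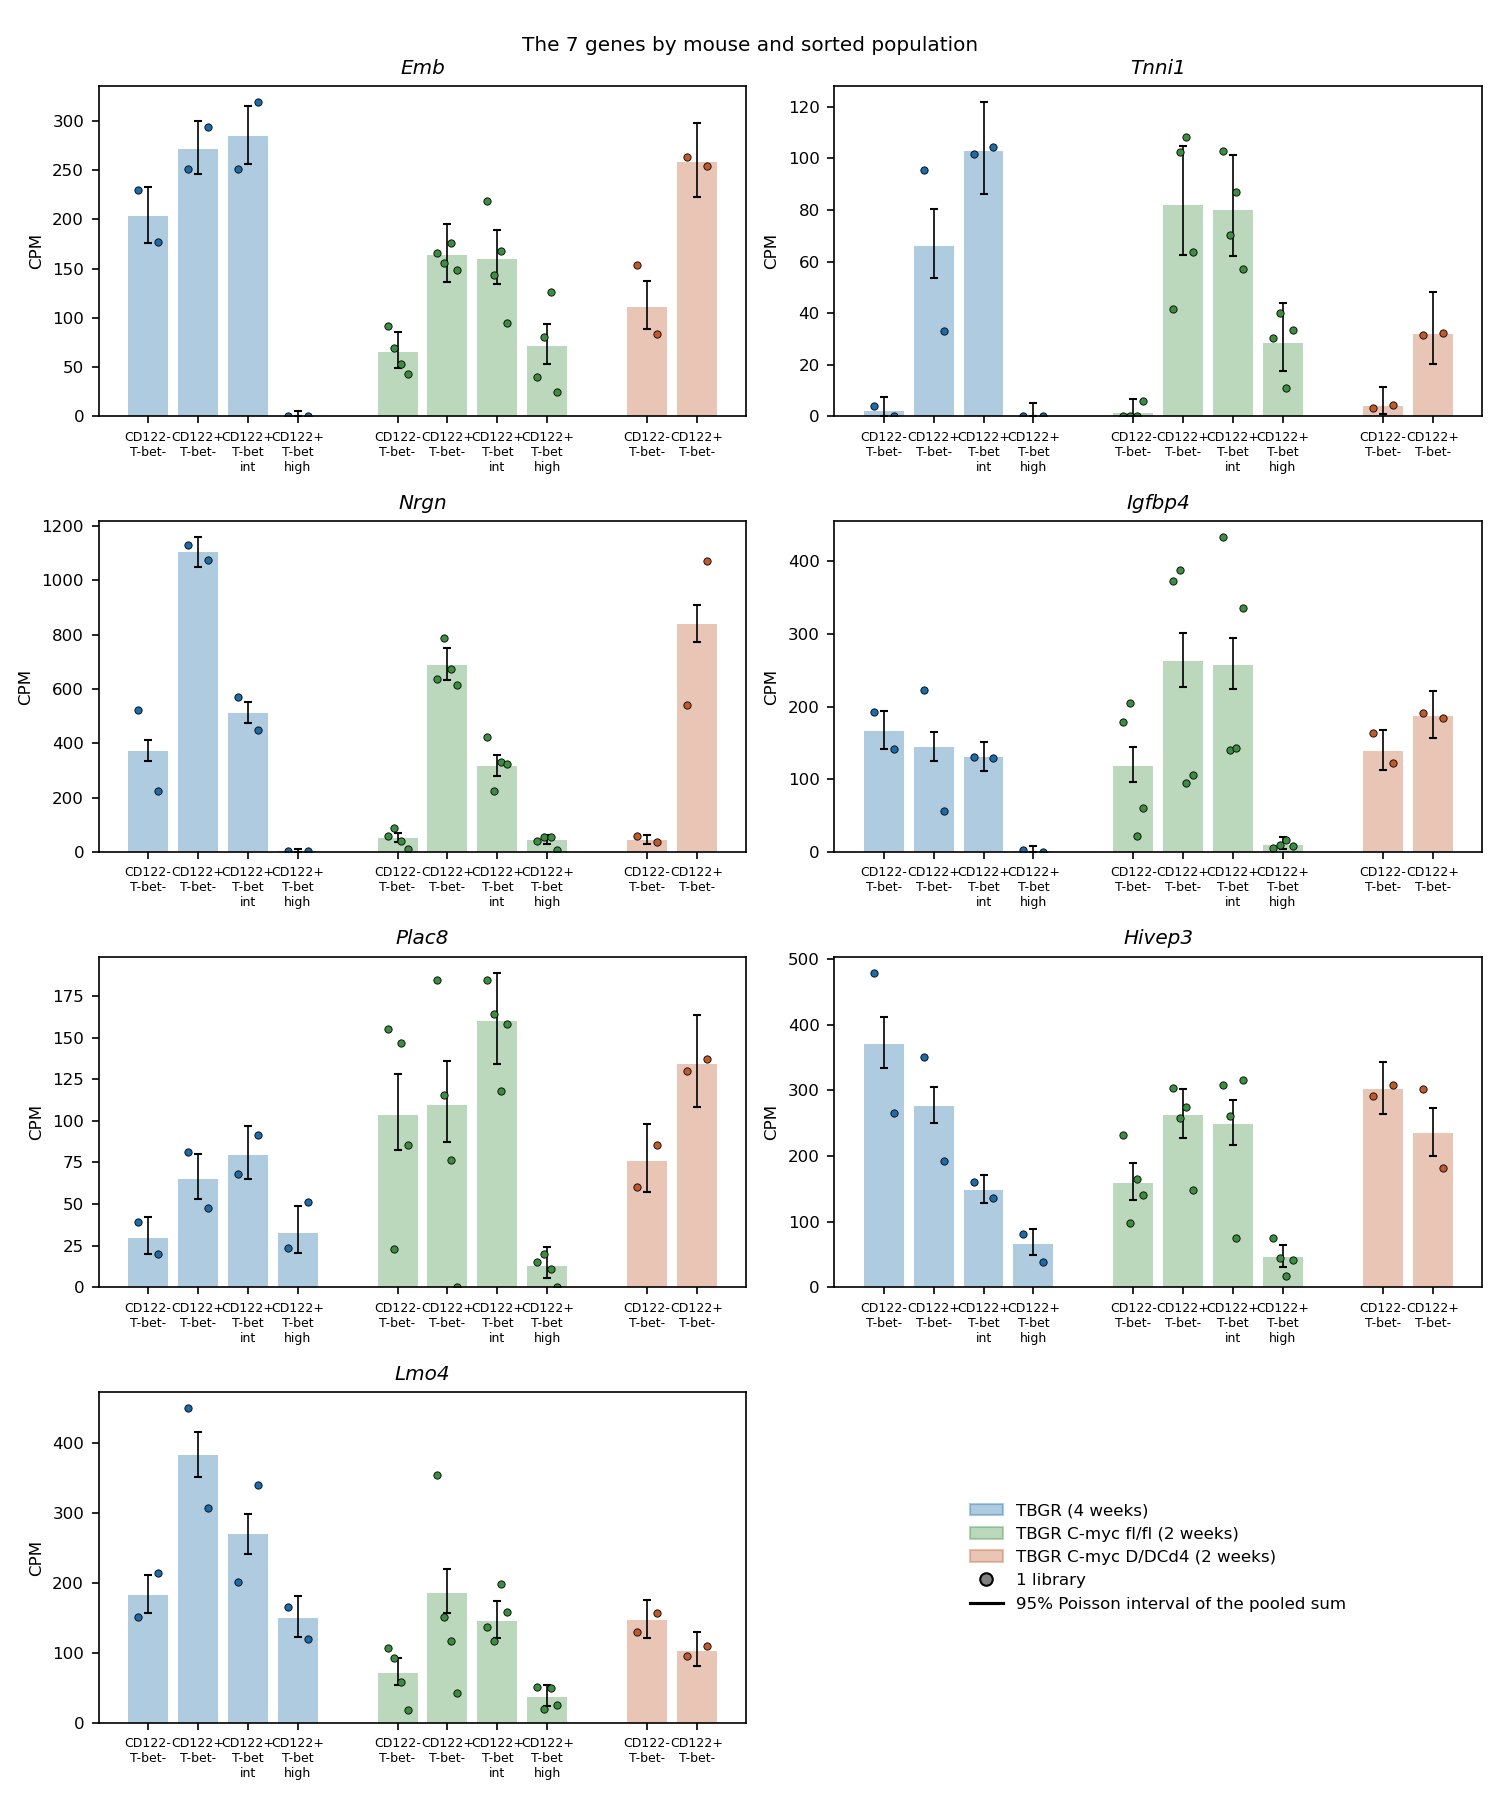
Level of each of the 7 genes in CPM (linear axes from 0) in the sorted populations of the 3 mice. Bars are the sum over all cells of a population with its 95% Poisson interval (counting error only), and points are libraries. Tnni1 is near 0 in every CD122-T-bet- population and Emb is at 0 in both TBGR T-bet high libraries but not in the C-myc fl/fl ones.

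A gene was called at a step when it had at least 50 transcripts, differed at least 2-fold (log2 ratio of at least 1, after adding 0.5 transcripts to each sum) and its libraries did not overlap; for populations sharing libraries, every library had to show the direction. Intervals are 95% and cover counting error only. By these rules 4 of the 7 genes rose with CD122 in the TBGR mouse (Tnni1, Nrgn, Plac8 and Lmo4) and 0 fell; of the 6531 genes tested, 11.2% rose and 3.05% fell. The median log2 ratio of the 7 was 1.06, against 0.26 over all genes tested.

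Tnni1 came on with CD122. In the TBGR mouse it was at 4.13 and 0 CPM in the CD122-T-bet- libraries (2 transcripts in 174 cells) and at 95.5 and 33.2 CPM in the CD122+T-bet- libraries. The groups were far apart although the later libraries differed among themselves, and the log2 ratio was 4.70 (3.12 to 8.08). The 4 C-myc fl/fl libraries gave 0, 0, 0 and 6.10 CPM before CD122 and 41.5, 102, 108 and 63.6 CPM with it, a log2 ratio of 5.48 (3.52 to 11.38). In the C-myc D/DCd4 mouse it was at 3.35 and 4.29 CPM and then at 31.8 and 32.4 CPM, on 26 transcripts in all, too few to be called. Detection followed the level: a Tnni1 transcript was found in 1.15% of TBGR CD122-T-bet- cells, in 18.3% of CD122+T-bet- and in 33.9% of T-bet int cells (median depths of 5118, 7073.5 and 6348 transcripts), and in 0.575%, 9.68% and 15.8% after each cell was thinned to 2000 transcripts. Thus even at its highest a minority of cells held a Tnni1 transcript. Without replicate 1 the TBGR log2 ratio was 3.73 on fewer than 50 transcripts, which ends the call, as did leaving out replicate 2 or replicate 3 of the C-myc fl/fl mouse (4.88 and 4.81).

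Nrgn was already on before CD122 in the TBGR mouse and rose with it in all 3 mice. In TBGR it was at 521 and 224 CPM and then at 1131 and 1074 CPM, the highest level any of the 7 genes reached, with a log2 ratio of 1.57 (1.41 to 1.74). The early level rested on few cells: the 5 richest CD122-T-bet- cells held 61.2% of its transcripts, 106 of them in 1 cell, and without those 5 the level was 153 CPM. Cells with a Zbtb16 or Il4 transcript held 30.6% of early TBGR Nrgn against 4.38% of all transcripts. Cells with a Trdc or Sox13 transcript held 53.7% against 35.9%. The TBGR log2 ratio was 1.95 without the former and 2.12 without the latter (both splits are given further on). Nrgn in the C-myc fl/fl mouse was at 58.2, 88.4, 40.03 and 12.2 CPM and then at 636, 788, 672 and 615 CPM, a log2 ratio of 3.72 (3.28 to 4.22). In the C-myc D/DCd4 mouse it was at 56.9 and 36.4 CPM and then at 540 and 1073 CPM, a ratio of 4.22 (3.74 to 4.78). The share of thinned cells with an Nrgn transcript went from 24.7% to 66.1% in TBGR, from 7.50% to 49.2% in C-myc fl/fl and from 7.81% to 52.6% in C-myc D/DCd4.

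Emb was present from the first gate and its step with CD122 differed in size between mice. In TBGR it was at 229 and 177 CPM before and at 252 and 294 CPM with CD122. These libraries did not overlap, but the log2 ratio was only 0.42 (0.17 to 0.67) and Emb was not called. It rose in C-myc fl/fl from 92.1, 69.8, 53.4 and 42.7 CPM to 166, 156, 176 and 149 CPM, a ratio of 1.32 (0.85 to 1.82). In the C-myc D/DCd4 mouse it rose from 154 and 83.6 CPM to 264 and 254 CPM, a ratio of 1.21 (0.84 to 1.61), or 0.73 and no call without replicate 4. The later levels of the 3 mice, 272, 164 and 258 CPM over all cells, lay closer together than the earlier ones, 203, 65.4 and 111 CPM.

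Lmo4 and Plac8 rose with CD122 in the TBGR mouse by about the size of the threshold. Lmo4 was at 151 and 213 CPM and then at 450 and 307 CPM, a log2 ratio of 1.06 (0.82 to 1.32), or 0.75 without replicate 1 and 0.84 without replicate 3. Plac8 was at 39.3 and 20.1 CPM and then at 81.3 and 47.6 CPM, a ratio of 1.13 (0.53 to 1.80), or 0.68 without replicate 1 and 0.70 without replicate 4. The call of either gene thus depended on single libraries, and 5 cells held 93.1% of the early Plac8 transcripts. Nearly all early Plac8 lay in cells with gamma delta T cell genes, and without them its ratio was 4.18 (given with that split further on). Lmo4 also rose in C-myc fl/fl, from 107, 93.0, 57.8 and 18.3 CPM to 355, 151, 117 and 42.4 CPM, higher in each of the 4 libraries, with a ratio of 1.37 (0.93 to 1.85), or 0.98 without replicate 1. Plac8 went in different directions there, from 155, 23.3, 147 and 85.4 CPM to 184, 116, 76.7 and 0 CPM, a ratio of 0.08. The last of these libraries, replicate 4, held 22 CD122+T-bet- cells, the fewest of any. In the C-myc D/DCd4 mouse Lmo4 was at 130 and 156 CPM and then at 95.3 and 110 CPM, without overlap and in the other direction, a ratio of -0.50 (-0.95 to -0.07) that was not called. Plac8 went from 60.2 and 85.7 CPM to 130 and 137 CPM in that mouse, without overlap at a ratio of 0.82 that was not called, or 1.12 and called without replicate 4.

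Igfbp4 and Hivep3 were on from the first gate and did not rise with CD122 in the TBGR mouse. Igfbp4 was at 192.2 and 141 CPM and then at 223 and 56.2 CPM, overlapping, with a log2 ratio of -0.21 (-0.51 to 0.10); replicate 1 decided this value, since without it the ratio was -1.55 and Igfbp4 fell. Hivep3 was at 480 and 266 CPM and then at 351 and 193 CPM, also overlapping, a ratio of -0.43 (-0.63 to -0.22). Igfbp4 rose in the C-myc fl/fl mouse, from 179, 205, 22.2 and 61.0 CPM to 373, 387, 94.7 and 106 CPM, a ratio of 1.14 (0.79 to 1.52). Hivep3 was higher in each of the 4 libraries, from 233, 97.7, 165 and 140 CPM to 304, 258, 275 and 149 CPM, but its ratio of 0.72 stayed below the threshold. In C-myc D/DCd4 neither gene was called: Igfbp4 went from 164 and 122 CPM to 191 and 184 CPM (0.43), and Hivep3 from 291 and 309 CPM to 302 and 182 CPM, overlapping (-0.36). Across the 3 mice, Tnni1 and Nrgn had the 2 largest log2 ratios at the CD122 step in each.

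In the C-myc fl/fl mouse 5 of the 7 genes rose with CD122 (Emb, Tnni1, Nrgn, Igfbp4 and Lmo4) and 0 fell, where 12.8% of 3662 genes rose and 1.69% fell, and in the C-myc D/DCd4 mouse 2 of the 6 with enough transcripts rose (Emb and Nrgn) and 0 fell, where 12.2% of 4211 rose and 6.89% fell. The whole transcriptome was shifted at this step. The median gene of those with 100 or more transcripts stood at a log2 ratio of 0.28 in TBGR and 0.55 in C-myc fl/fl. Relative to that shift Nrgn stood at 1.30 and 3.17 and Tnni1 at 4.42 and 4.93, whereas Plac8 and Lmo4 in TBGR came to 0.85 and 0.79, and Emb, Igfbp4 and Lmo4 in C-myc fl/fl to 0.77, 0.60 and 0.82. Relative to the median gene, Tnni1 and Nrgn were therefore the only members called in these 2 mice.

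**Figure D2:**
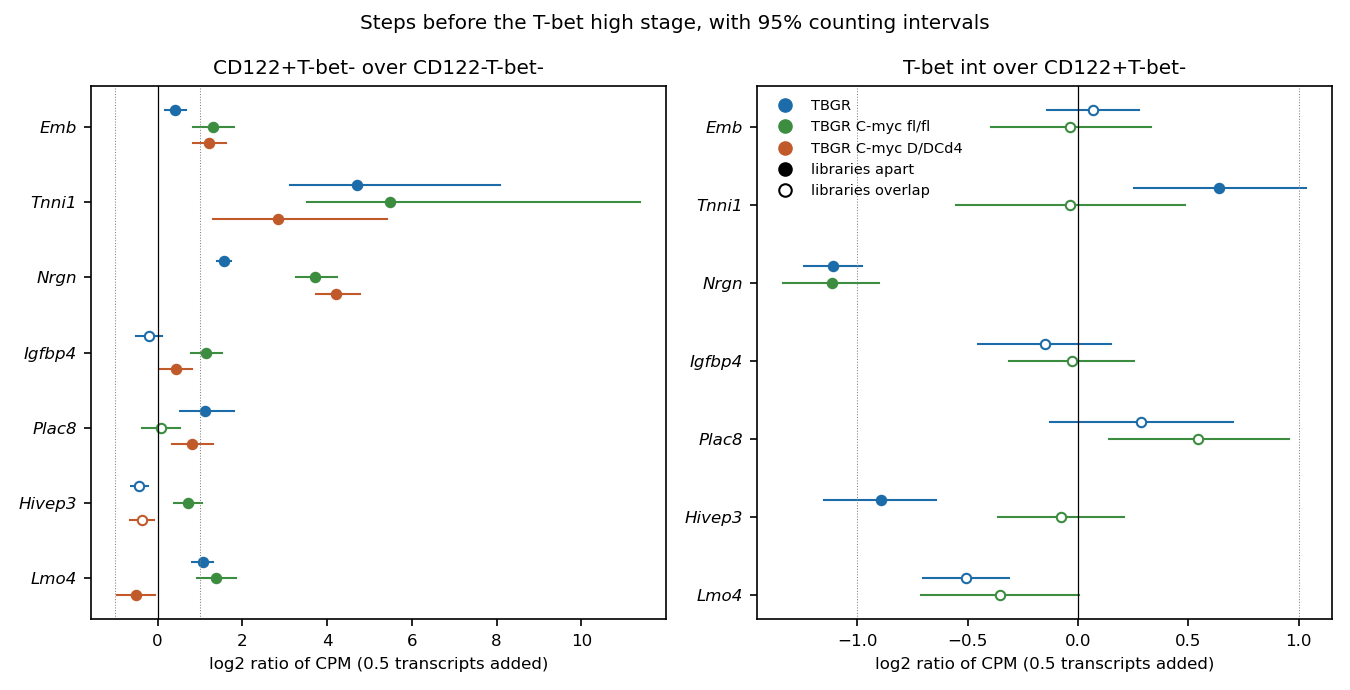
Log2 ratios of the 7 genes at the step to CD122+T-bet- (3 mice) and from CD122+T-bet- to T-bet int (2 mice), with 95% intervals (counting error only). Filled points have libraries that do not overlap (for populations sharing libraries, the same direction in each) and open points overlap. Tnni1 and Nrgn lie farthest to the right at the first step, and Nrgn lies near -1.1 at the second in both mice.

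From CD122+T-bet- to T-bet int, 1 of the 7 genes was called. The T-bet int levels entered the choice of the 7 genes, which favours high values at that stage. This step is therefore not independent of the choice. Nrgn fell in both mice that were sorted for these stages. In TBGR it went from 1131 and 1074 CPM to 571 and 449 CPM, a log2 ratio of -1.11 (-1.24 to -0.98), where 4.12% of 7063 genes fell and 2.58% rose. In the C-myc fl/fl mouse it went to 425, 224, 330 and 323 CPM, a ratio of -1.12 (-1.34 to -0.90), where 0.19% of 4217 genes fell and 0.427% rose. Without TBGR replicate 8 the ratio was -0.95, and without C-myc fl/fl replicate 6 it was -0.90, which end the respective calls. Pdcd1 and Nr4a1 had log2 ratios of -1.18 and -1.50 at the same step in TBGR. Hivep3 was also lower at this step in TBGR, just short of the threshold.

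Tnni1 and Emb held their levels in T-bet int cells. In TBGR Tnni1 was at 102 and 104 CPM, above both CD122+T-bet- libraries with a log2 ratio of 0.64 (0.25 to 1.03) that was not called, and at 1.61 and called without replicate 1. In C-myc fl/fl it was at 103, 70.3, 87.1 and 57.0 CPM, overlapping the stage before. Emb was at 252 and 319 CPM in TBGR, a ratio of 0.07 (-0.14 to 0.28), and at 219, 144, 168 and 94.9 CPM in C-myc fl/fl, overlapping in both mice. Igfbp4 was at 130 and 130 CPM in TBGR and at 433, 141, 143 and 335 CPM in C-myc fl/fl, and overlapped its earlier values in both; without TBGR replicate 1 its ratio was 1.195 and it rose.

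Hivep3 and Lmo4 were lower at T-bet int in the TBGR mouse without being called. Hivep3 was at 161 and 136 CPM, below both earlier libraries with a log2 ratio of -0.89 (-1.15 to -0.64), and it fell by the call rule when replicate 2 or 7 was left out (-1.24 and -1.02). In C-myc fl/fl it was at 309, 261, 74.7 and 316 CPM, overlapping. Lmo4 was at 202 and 340 CPM in TBGR and at 137, 117, 199 and 158 CPM in C-myc fl/fl, overlapping in both, and 5 cells held 50.9% of the TBGR T-bet int transcripts, 83 of them in 1 cell. Plac8 was at its highest over all cells in T-bet int cells, at 68.2 and 91.7 CPM in TBGR and at 184, 164, 118 and 158 CPM in C-myc fl/fl, and again overlapped the stage before. The choice of the genes favours such a maximum.

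At the step the genes were picked on, Emb was at 0 and 0 CPM in the TBGR T-bet high libraries, at least 66.9-fold lower than at T-bet int, against a floor of 3 transcripts over the group. Tnni1 was likewise at 0 and 0 CPM, at least 24.2-fold lower. Neither gene was detected in 147 cells, which allows up to 2.04% of cells with a detected transcript (a count of 3, counting error only; the median depth was 4309 transcripts, and a cell without one may still express the gene). Nrgn was at 2.12 and 4.28 CPM and Igfbp4 at 2.12 and 0 CPM, on 2 transcripts and 1 transcript. Ranked by log2 ratio among 5833 genes, Emb, Tnni1 and Nrgn were the lowest 3 and Igfbp4 was number 10.

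The other members were less extreme in TBGR. Plac8 was at 23.3 and 51.4 CPM in the T-bet high libraries, 2.40-fold below T-bet int and number 363 from the lowest. Hivep3 was at 80.6 and 38.6 CPM, 2.21-fold below and number 452. Lmo4 was at 165 and 120 CPM, 1.78-fold below and number 817, and did not meet the 2-fold rule. Without the 5 richest cells of each gate it was at 143 CPM in T-bet int and 131 CPM in T-bet high cells, and after thinning it was found in 20.5% and 23.1% of them. With 6 of the 7 called lower, where 9.87% of genes were, Hivep3 was the last gene inside the threshold and Lmo4 the first outside it. The calls near the threshold turned on single libraries: Plac8 stood at a log2 ratio of -0.58 without replicate 5 and Hivep3 at -0.87 without replicate 6, whereas Lmo4 stood at -1.14 without replicate 5 and -1.17 without replicate 7.

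In the C-myc fl/fl mouse all 7 were called lower in T-bet high cells, where 3.36% of 3987 genes were, and the order of the genes differed. Igfbp4 went to 5.04, 10.02, 16.5 and 8.34 CPM, Plac8 to 15.1, 20.05, 11.01 and 0 CPM and Nrgn to 40.3, 55.1, 55.0 and 8.34 CPM, with log2 ratios of -4.59, -3.56 and -2.87. Hivep3 was at 75.6, 45.1, 16.5 and 41.7 CPM, and Lmo4 at 50.4, 20.05, 49.5 and 25.0 CPM, with ratios of -2.43 and -1.95. Tnni1 and Emb, the 2 genes at 0 in TBGR, had the smallest ratios here. Tnni1 was at 30.2, 40.1, 11.01 and 33.4 CPM (-1.46) and Emb at 40.3, 80.2, 127 and 25.0 CPM (-1.15); within each library the log2 ratio of Emb was -2.37, -0.82, -0.40 and -1.75, and without replicate 5 its ratio was -0.71 and it was not called.

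Genes of earlier stages were detected more often in the C-myc fl/fl than in the TBGR T-bet high gate. Id3 was detected in 31.3% of that gate and in 3.40% of the TBGR one, and Ikzf2 in 57.1% and 27.9%. Of the 28 C-myc fl/fl T-bet high cells with at least 2 of the 7 genes, 18 held Ikzf2, 14 Id3, 8 Klrk1, 8 Klrb1c and 9 Tbx21, against 46, 21, 30, 19 and 22 of the 84 other cells. In TBGR the 23 such cells held Ikzf2 in 5 and Id3 in 0, against 36 and 5 of the 124 others. These counts are at full depth, where a deeper cell is more likely to hold 2 of the 7 genes and any other gene. The depths of such cells and of the others were not compared. After thinning, 7 C-myc fl/fl and 6 TBGR cells held at least 2. The median depth of the gate was 5935.5 transcripts in C-myc fl/fl and 4309 in TBGR. After thinning, Emb was found in 8.70% of the 23 C-myc fl/fl T-bet high cells with a Klrk1 transcript (2 cells) and in 15.7% of the 89 without (14 cells). It was found in none of the TBGR cells of either kind. All 7 genes together came to 0.391 per cell with Klrk1 and 0.371 without, and Nrgn, Igfbp4, Plac8, Hivep3 and Lmo4 were found in a higher share of the cells with it, on 1 or 2 cells each. The summed level of the mature T-bet+ list (Tbx21, Gzmb, Ly6c2, Fgl2, Klrk1, Klrb1c and Id2) was 5247 to 7188 CPM in the TBGR T-bet high libraries and 2575 to 3653 CPM in the C-myc fl/fl ones, and its part in the higher Emb and Tnni1 levels was not tested.

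Counted per cell, more of the 7 genes were detected with CD122 and few in T-bet high cells. The low T-bet high counts restate the step the genes were picked on. In TBGR a CD122-T-bet- cell held transcripts of 2.39 of them on average, a CD122+T-bet- cell of 3.58, a T-bet int cell of 3.19 and a T-bet high cell of 0.728. After thinning these means were 1.33, 1.98, 1.54 and 0.401. At least 3 of the 7 were found in 28.0% of thinned CD122+T-bet- cells and in 0 of 147 T-bet high cells, also at full depth, and none of the 7 in 7.53% and 63.9% of them. The thinned means in C-myc fl/fl were 0.750, 1.70, 1.65 and 0.375, and in C-myc D/DCd4 0.922 and 1.56, so in each mouse more of the 7 genes were found per cell with CD122 than before it.

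**Figure D3:**
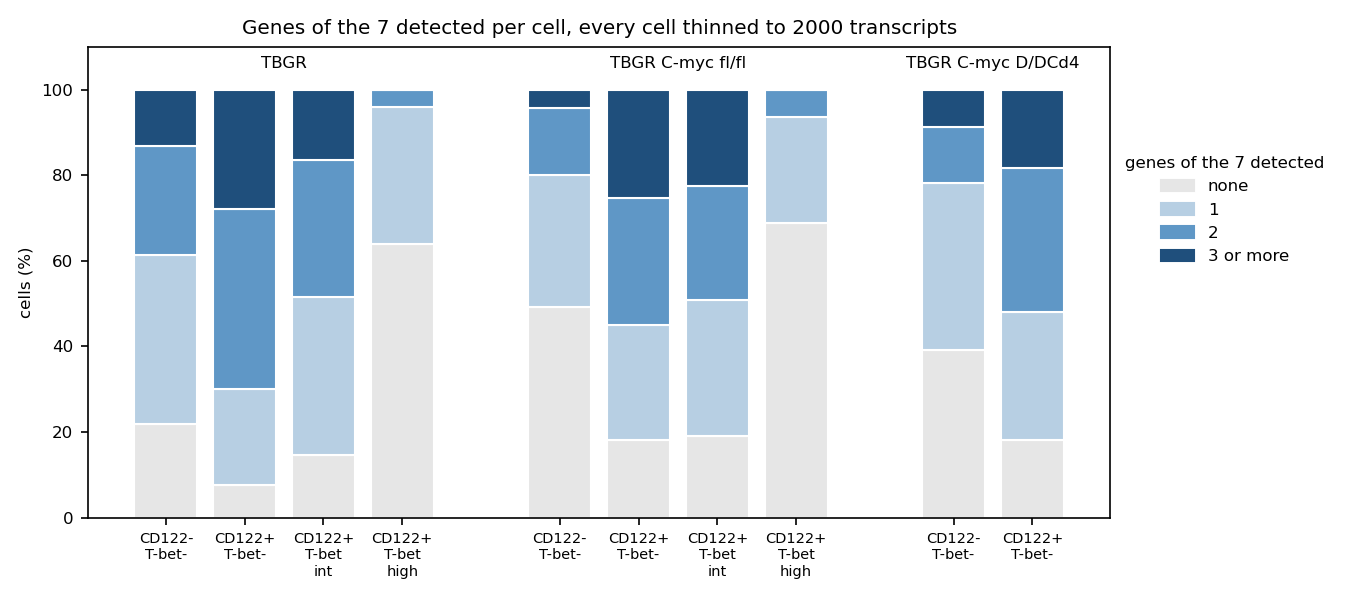
Percentage of cells holding transcripts of 0, 1, 2 or at least 3 of the 7 genes in every sorted population, after each cell was thinned to 2000 transcripts. In T-bet high cells 63.9% (TBGR) and 68.8% (C-myc fl/fl) held none, and 0 cells held 3 or more, which restates the step the genes were picked on.

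Within the CD122-T-bet- gate, cells that already expressed Ikzf2 did not hold more of the 7 genes in every mouse. After thinning, TBGR cells with an Ikzf2 transcript held 1.23 of the 7 (52 cells) and cells without held 1.38 (122 cells). In C-myc fl/fl the means were 1.03 (37 cells) and 0.627 (83 cells), and in C-myc D/DCd4 1.06 (50 cells) and 0.833 (78 cells). The TBGR gate also held transcripts of the double positive thymocyte list (Rag1, Rag2, Dntt, Cd4, Cd8a, Cd8b1, Ptcra and Arpp21), at 656 to 779 CPM per library with all 8 genes detected and Cd4 most abundant, against 99.5 to 126 CPM in CD122+T-bet- cells, where Rag1 and Rag2 were at 0. The part of these cells in the early levels of the 7 genes was not tested.

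A minor set of cells carried much of Igfbp4, Plac8 and Lmo4. Cells with a transcript of Zbtb16, which encodes the NKT cell factor PLZF, or of Il4 made up 4, 17, 33 and 27 cells of the 4 TBGR gates; this split was chosen after seeing the data. In the T-bet int gate these 33 cells held 29.2% of all transcripts but 77.4% of those of Igfbp4, 74.8% of Plac8, 59.2% of Lmo4 and 50.5% of Nrgn, against 43.2% of Hivep3, 20.3% of Tnni1 and 14.4% of Emb. Igfbp4 was at 345 CPM in them and at 41.5 CPM in the rest of the gate, and Plac8 at 204 and 28.4 CPM. Emb showed the reverse, at 141 CPM in them and 344 CPM in the rest, and Tnni1 was at 71.6 and 116 CPM. Few cells weighed heavily: for each gene, 5 cells of the T-bet int gate held 61.3% of Igfbp4, 49.5% of Plac8 and 50.9% of Lmo4 transcripts. Of the 168 Igfbp4 transcripts there, 54 lay in 1 cell. Without the 5 richest cells of each gate Igfbp4 was at 119, 73.0 and 53.2 CPM in CD122-T-bet-, CD122+T-bet- and T-bet int cells. These are sums over cells of 1 mouse, and the 33 cells were deeper, with a median of 9305 transcripts against 6020.

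The same split in C-myc fl/fl gave smaller shares at T-bet int, and the genes were not concentrated in these cells in every gate. In C-myc fl/fl T-bet int cells the 24 cells held 29.6% of all transcripts and 48.4% of those of Igfbp4, 34.6% of Plac8 and 37.1% of Lmo4, with Hivep3 highest at 52.4%, and 14.7% and 13.2% of those of Emb and Tnni1. In CD122+T-bet- cells they held 13.8% of all transcripts in TBGR and 24.9% in C-myc fl/fl, but 58.0% and 59.3% of those of Igfbp4 and 52.1% and 61.4% of those of Plac8. Emb was below the share of all transcripts in each of these 4 populations (9.77% and 24.2% in CD122+T-bet-). Cells with a Zbtb16 or Il4 transcript held, in C-myc fl/fl CD122-T-bet- cells, 5.21% of Igfbp4 and 5.95% of Plac8 transcripts against 5.87% of all. In TBGR CD122-T-bet- cells they held 6.13% of Igfbp4 and 58.6% of Plac8 (17 of 29 transcripts, in 4 cells) against 4.38% of all. In T-bet high cells they held 21.7% of Plac8 against 20.7% of all in TBGR and 0% against 16.8% in C-myc fl/fl. In C-myc D/DCd4 CD122+T-bet- cells, 10 of 137 cells held 44.8% of Igfbp4 and 31.25% of Plac8 against 11.5% of all. In its CD122-T-bet- cells, 7 of 128 held 3.77% and 5.17% against 7.39% of all. The NKT list (Zbtb16, Il4, Icos and Cd1d1) summed to 161 to 320, 193 to 552, 261 to 553 and 334 to 431 CPM per library from CD122-T-bet- to T-bet high in TBGR. All 4 genes were detected in each gate, with Icos most abundant. Icos was at 297 CPM in TBGR T-bet high cells without a Zbtb16 or Il4 transcript, so the sum is not a measure of NKT cells. The study's sort excluded CD4+ and NK1.1+ cells. Its CD1d tetramer stain marked few such cells as potential NKT precursors, and almost none without C-Myc. Whether the cells of this split are NKT cells was not tested.

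**Figure D4:**
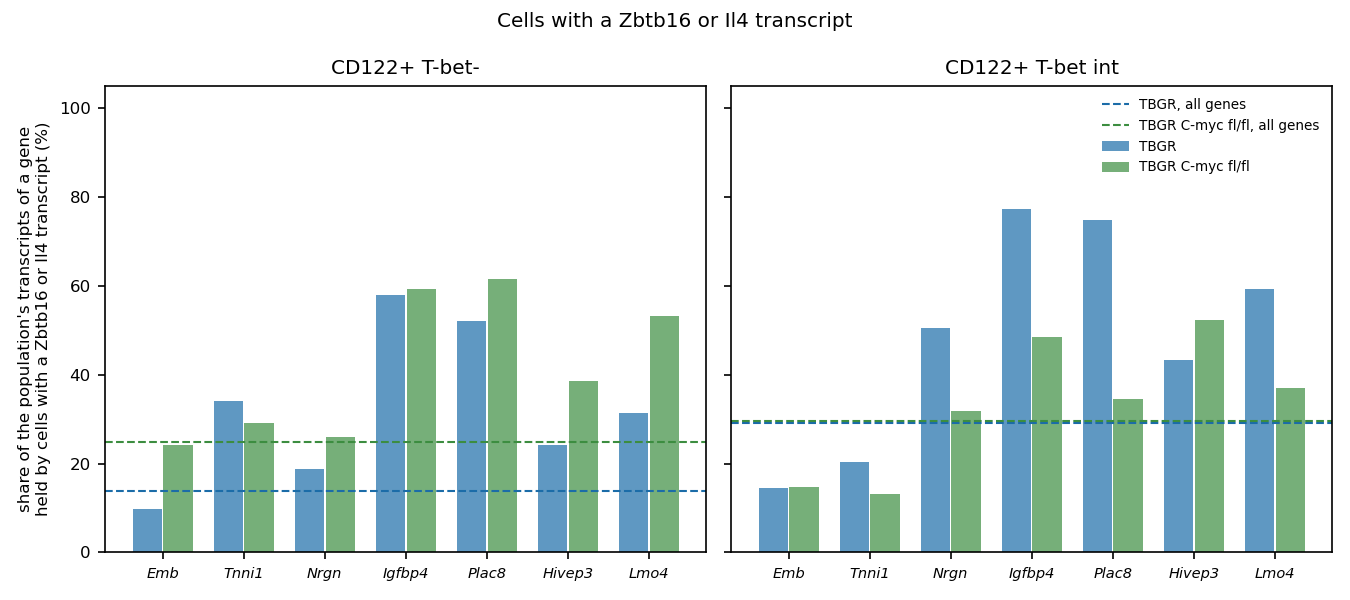
Percentage of each gene's transcripts held by cells with a Zbtb16 or Il4 transcript, in CD122+T-bet- and T-bet int cells of the TBGR and C-myc fl/fl mice. The dashed line is the share of all genes' transcripts those cells held (29.2% in TBGR T-bet int). Igfbp4, at 77.4%, lies well above it there, and Emb, at 14.4%, below.

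Leaving these cells out moved Igfbp4 at the CD122 step and Plac8 at the last step in the TBGR mouse. Without them Igfbp4 fell at the CD122 step in TBGR, with a log2 ratio of -1.21, and Plac8 was no longer lower in T-bet high than in T-bet int cells (0.19). Hivep3 and Lmo4 then stood at -0.59 and -0.24 at that last step, so neither was called there. Igfbp4 kept 38 transcripts in T-bet int cells, too few for a call. Emb, Tnni1, Nrgn and Igfbp4 stood at -8.59, -7.02, -7.06 and -5.55, of which the first 2 compare with 0 transcripts and depend on the 0.5 added. The onset of Plac8 in TBGR stood at 1.46. Without these cells the last step in C-myc fl/fl stayed below -1 for Igfbp4 (-4.08), Plac8 (-3.19), Lmo4 (-1.97) and Hivep3 (-1.65).

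Cells with a transcript of Trdc, which encodes the constant region of the T cell receptor delta chain, or of Sox13, a factor of gamma delta T cells, carried the early Plac8; this split too was chosen after seeing the data. They made up 49 of 174 CD122-T-bet- cells in TBGR, 38 of 120 in C-myc fl/fl and 72 of 128 in C-myc D/DCd4, and 42, 13 and 24 cells with CD122. Before CD122 they held 93.1%, 95.2% and 89.7% of the Plac8 transcripts in the 3 mice, against 35.9%, 38.8% and 63.8% of all transcripts. In TBGR this rested on few cells: 7 cells held the 29 early Plac8 transcripts, 17 of them in 1 cell. The 4 cells of that gate with a Zbtb16 or Il4 transcript held 58.6% of them, so the 2 splits overlapped there. Plac8 in the cells without a Trdc or Sox13 transcript went from 3.18 to 71.6 CPM with CD122 in TBGR. It went from 8.07 to 88.8 CPM in C-myc fl/fl and from 21.7 to 74.8 CPM in C-myc D/DCd4. The log2 ratios were 4.18, 3.30 and 1.69, on 2, 4 and 6 transcripts before the step. Igfbp4 was spread otherwise: cells with a Trdc or Sox13 transcript held 30.1% and 42.7% of it before CD122 in TBGR and C-myc fl/fl but 88.7% in C-myc D/DCd4. The gamma delta list (4 genes listed in the files) summed to 279 to 733 CPM per TBGR CD122-T-bet- library and to 981 to 1513 CPM in T-bet high, where Trdc and Sox13 were at 0 and Tcrg-C4 was most abundant.

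Along a diffusion order of the 678 TBGR cells, cut into 10 bins of 67 or 68 cells, the genes peaked at different positions. Hivep3 was highest in the first bin (622 CPM), Igfbp4 in the third and Nrgn in the fourth (1026 CPM), Emb and Tnni1 in the sixth (319 and 113 CPM), and Plac8 and Lmo4 in the eighth (224 and 683 CPM). Emb lay between 196 and 319 CPM in bins 1 to 8 and at 0 in bins 9 and 10, which held 67 and 68 of the 147 T-bet high cells. Tnni1 was at 2.91 CPM in the first bin and at 0 in the last 2. Nrgn had 2 maxima, with 147 CPM in the seventh bin and 930 CPM in the eighth. The seventh bin held 38 T-bet int and 20 CD122-T-bet- cells at a median depth of 4243 transcripts. It thus mixed early and later gates, and the dip is not read as a course in time. That eighth bin held 41 T-bet int, 20 CD122+T-bet- and 5 T-bet high cells, and 35 of its 68 cells held a Zbtb16 or Il4 transcript. The fourth bin, where Nrgn was highest, held the most Foxp3 of the 10 bins (107 CPM, in 17 of 68 cells). The regulatory T cell list (Foxp3, Il2ra and Ctla4) summed to 29.7 to 148 CPM per library in TBGR CD122+T-bet- cells. The part of such cells in the Nrgn level was not tested. The 7 genes were left out of the ordering, but it was built from the same cells, so their peaks are a description. The order without replicate 5 correlated with the full one at a Spearman rho of 0.55, and at 0.86 to 0.99 without each other library; the peaks of Tnni1 and Nrgn ranged from 5% to 95% of the cells over these orders, that of Hivep3 from 5% to 15% and that of Lmo4 from 75% to 85%.

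The C-myc D/DCd4 and C-myc fl/fl genotypes were compared in the 2 T-bet- gates of the 2-week-old mice. Deletion of C-myc in single cells, those with a Trdc or Sox13 transcript included, was not tested. Cells with a Trdc or Sox13 transcript made up different shares of these gates, and their part in the differences between genotypes was not tested beyond leaving them out: without them Igfbp4 stood at -1.31 before CD122 and -2.31 with it, against 0.22 and -0.49 over all cells. Myc itself, read from a 3′ tag that may lie outside the deleted part, was at 24.8 CPM in C-myc D/DCd4 and 42.0 CPM in C-myc fl/fl CD122-T-bet- cells, and at 25.1 and 99.0 CPM in CD122+T-bet- cells, where the libraries overlapped. Among CD122-T-bet- cells Lmo4 was higher in C-myc D/DCd4 (130 and 156 CPM against 107, 93.0, 57.8 and 18.3 CPM), with a log2 ratio of 1.03. It was the only one of the 6 genes with enough transcripts to be called, where 12.5% of 3677 genes were called higher and 0.517% lower, and the median gene stood at 0.45. Relative to that median the ratio of Lmo4 was 0.57, and without C-myc D/DCd4 replicate 4 or C-myc fl/fl replicate 3 or 4 it was 0.87, 0.92 and 0.77. Hivep3 was higher in both libraries than in all 4 of C-myc fl/fl (291 and 309 CPM against at most 233 CPM), at 0.92 and not called, or at 1.16 and called without C-myc fl/fl replicate 1; Emb stood at 1.24 and was called without C-myc D/DCd4 replicate 4.

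Among CD122+T-bet- cells Tnni1 was lower in C-myc D/DCd4, at 31.8 and 32.4 CPM against 41.5, 102, 108 and 63.6 CPM, with a log2 ratio of -1.33 (-2.11 to -0.64). It was the only one of the 7 called, where 7.05% of 4201 genes were called lower and 13% higher, and 23 transcripts lay behind the lower value. Emb was higher, at 264 and 254 CPM against at most 176 CPM, a ratio of 0.66 that was not called. Nrgn, Igfbp4, Plac8, Hivep3 and Lmo4 overlapped. Of this genotype the 2 T-bet- gates were sorted.

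Over the 28 sums per library and population, on a log2(CPM + 10) scale, the 3 genes most like each member were compared as a description. The sums share libraries and depth. They also include the T-bet int and T-bet high values that picked the members. Genes that fall at that step therefore correlate with the members, and the members with each other, in part through the choice itself. Emb was most like Nrgn (Pearson r = 0.87), Id3 (0.86) and Ikzf2 (0.83) among 8141 genes, and Nrgn most like Pdcd1 (0.91), Tsc22d1 (0.90) and Igf2r (0.88). Tnni1 was most like Klhdc2 (0.90), Rexo2 (0.87) and Klrb1a (0.87), and Hivep3 like Lef1 (0.83), Igfbp4 (0.78) and Lamp1 (0.77). Igfbp4 was most like Gm37124 (0.80), Hivep3 (0.78) and Id3 (0.76), Plac8 like Dctpp1 (0.75), Strbp (0.75) and Pwwp2a (0.74), and Lmo4 like Bag6 (0.84), St13 (0.82) and Sf3b1 (0.82).

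Genes of the members' families and pathways were counted in the TBGR mouse. Of 54 listed genes, 28 had at least 50 transcripts in this mouse, and no troponin or Plac8-family gene was among them. At the CD122 step 1 of 25 tested rose and 0 fell, against 11.2% and 3.05% of all genes. The one was Igf2r, the receptor that clears insulin-like growth factor 2, from 57.1 to 183 CPM (log2 ratio of 1.67), and it fell again into T-bet high cells (-1.88). At T-bet int 2 of 26 rose (the calcineurin subunits Ppp3ca and Ppp3cc, 1.08 and 1.201) and 3 fell (Igf1r -1.88, Nfkb2 -1.99 and the LIM cofactor Ldb1 -1.57), against 2.58% and 4.12% of all genes. At T-bet high 4 of 23 rose (Slc16a6 1.87, Nfatc2 1.25, Nfkb2 2.25 and Ldb1 1.48) and 2 fell (Camk4 -1.03 and Igf2r), where 9.87% of all genes fell. The share of all genes that rose at this step is not given here, so the 4 cannot be set against it. Bsg, which encodes basigin, the embigin relative that also escorts monocarboxylate transporters, was at 94.9, 111, 103 and 93.6 CPM through the 4 gates and was not called at any step.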

How the data were processed

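Cells were sequenced by CEL-Seq2 in 20 libraries of 96 wells. The authors aligned reads with BWA 0.6.2-r126 (per the labels, after bcl2fastq 2.17.1.14) to GENCODE VM9 transcripts. The deposited values are the authors' estimated transcript counts per gene and cell barcode, not normalized: all 3233802 positive values fitted whole molecular identifiers of 6 bases corrected for collisions (within 0.001 relative). Populations were taken from the deposited well lists. Wells with at least 2000 transcripts without mt- and ERCC- features were kept; doublets were not called. Values were rounded and summed per population and per library, scaled to CPM and compared as log2 ratios with 0.5 transcripts added, with exact 95% intervals. Diffusion used 1000 variable genes without the members, 20 components and 15 neighbours. Alternatives covered scaling, thinning, thresholds and each library left out. Python 3.11.15, numpy 2.4.6, pandas 2.3.3 and scipy 1.17.1 were used, and the scripts were tested on simulated data. The members and lists were chosen with earlier results of these data known: in every comparison the members are named, with fixed stage genes, relatives and the 3 most similar genes.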

Additional observations from a re-analysis of the deposited data

Results flagged for a closer look

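Tnni1 stood at 6.10 CPM in C-myc fl/fl replicate 4 of the CD122-T-bet- gate, where the other 3 libraries were at 0, and this single sample lay far from the rest. It rests on 1 transcript. Of 28 groups of 4 libraries, 1 was set apart in this way. The rule sets apart any transcript found in 1 library when the others are at 0, so no chance rate is attached.

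The step with CD122 took Lmo4 in opposite directions in different mice: the log2 ratio was 1.06 in TBGR and 1.37 in C-myc fl/fl, but -0.50 in C-myc D/DCd4. The libraries of each mouse moved one way, and the difference between mice was not tested.

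Barcodes assigned to no well also held transcripts of the members: 20 of Emb, 35 of Nrgn, 17 of Igfbp4, 4 of Plac8, 14 of Hivep3 and 14 of Lmo4. Over 1920 such barcodes this was 51080 transcripts of all genes, 0.535% of the total. The share was 4.17% in TBGR replicate 6 (T-bet high), where Emb and Tnni1 were at 0 in the wells, and at most 0.725% in any other library.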

How the results depend on the processing

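No paired analysis was possible because the results come from no test; in C-myc fl/fl, where both populations of a step share libraries, the calls already used the direction within each library. Leaving out each library in turn moved the median log2 ratio of the 7 genes at the CD122 step within 0.68 to 1.30 in TBGR (1 to 4 called higher, 0 to 1 lower), 1.15 to 1.38 in C-myc fl/fl (4 to 5 higher) and 0.63 to 0.85 in C-myc D/DCd4 (2 higher). At T-bet int it lay within -0.74 to -0.048 in TBGR (0 to 2 higher, 0 to 2 lower) and -0.25 to 0.044 in C-myc fl/fl (0 to 1 lower), where it changed sign without replicate 6 (0.044) and replicate 1 (0.017). At T-bet high it lay within -5.94 to -5.36 in TBGR (5 to 7 lower) and -2.63 to -2.31 in C-myc fl/fl (6 to 7 lower). Between C-myc D/DCd4 and C-myc fl/fl it lay within 0.36 to 0.88 before CD122 (0 to 2 higher) and -0.51 to -0.07 with it (1 lower). The peak along the diffusion order lay within 35% to 65% of the cells for Emb, 5% to 95% for Tnni1 and for Nrgn, 5% to 25% for Igfbp4, 65% to 85% for Plac8, 5% to 15% for Hivep3 and 75% to 85% for Lmo4.

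With every cell thinned to 2000 transcripts, which leaves fewer transcripts to reach 50, 1 gene rose and 1 fell at the CD122 step in TBGR, and 2 rose in C-myc fl/fl (median 0.83). At T-bet int the C-myc fl/fl median became 0.094 with 0 lower, at T-bet high the medians were -4.03 in TBGR (2 lower) and -2.68 in C-myc fl/fl (3 lower), and between the 2 genotypes with CD122 the median became 0.29 with 0 lower. The thinned genes per cell were 1.33, 1.98, 1.54 and 0.401 in TBGR, 0.750, 1.70, 1.65 and 0.375 in C-myc fl/fl, and 0.922 and 1.56 in C-myc D/DCd4. Relative to the median gene, 2 rose with CD122 in TBGR, 2 in C-myc fl/fl (0.77) and 0 were higher in C-myc D/DCd4 before CD122; with the trimmed mean of M values these were 2, 3 (0.99) and 0. With each cell's share weighted equally, 3 rose with CD122 in C-myc fl/fl (0.88), its T-bet int median was 0.11 with 0 lower, and the median between genotypes with CD122 was 0.17. Adding 2 transcripts gave -4.95 at T-bet high in TBGR.

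2 alternatives were chosen after seeing the data. Without cells with a Zbtb16 or Il4 transcript the TBGR medians were 0.76 (1 lower) at the CD122 step and -0.75 (1 higher, 2 lower) at T-bet int, and 3 genes were lower at T-bet high, where Plac8 turned to 0.19. In C-myc fl/fl they were 0.97 (2 higher), 0.23 (1 higher, 0 lower) and -1.97, and between genotypes with CD122 0.13. Without cells with a Trdc or Sox13 transcript, 2 genes were lower at T-bet int in TBGR, the C-myc fl/fl medians were 2.17 and 0.00369 at the first 2 steps, and between genotypes 0 were higher before CD122 and 2 lower with it. The causes of these changes were not tested.

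Over all genes the number called moved with the threshold. At minimums of 20, 100 and 1 transcripts, and with a log2 ratio of at least 2, it was 1687, 464, 3503 and 182 at the CD122 step in TBGR, 987, 221, 2307 and 54 at T-bet int, and 1680, 518, 3169 and 227 at T-bet high. In C-myc fl/fl it was 1030, 261, 2257 and 69 (280 relative to the median gene), then 76, 9, 189 and 3, and 487, 87, 1733 and 28. At the CD122 step in C-myc D/DCd4 it was 1574, 407, 4002 and 216, and between the genotypes 961, 229, 2031 and 25 (167 relative to the median gene) before CD122 and 1436, 451, 2577 and 135 with it. Of 1001 single-gene ratios recomputed, 947 stayed within 1 SD of the libraries, 53 moved by more and 1 changed sign after a call. Depth limits Tnni1 most, with 26 transcripts at the CD122 step of C-myc D/DCd4, and 1 mouse per genotype leaves every difference between mice without an error.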
